A study of Mus musculus with 2 samples.

Results

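Nesprins, SUN proteins and lamins together tie the cytoskeleton to the nucleus. Nesprins, encoded by the Syne genes, sit in the outer nuclear membrane and bind actin filaments, intermediate filaments or motor proteins. Their tails meet the SUN proteins of the inner membrane, which rest on the lamina, a mesh of lamin filaments under the nuclear envelope. Mutations of the gene for lamins A and C cause a partial loss of fat tissue in humans, and those lamins become more abundant in stiffer tissues.

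The 7 genes described are 3 nesprin genes (Syne1, Syne2 and Syne3), 2 SUN genes (Sun1 and Sun2) and 2 lamin genes (Lmna and Lmnb1). DNA methylation at them was read from a list of differentially methylated regions that the authors deposited, taking every region that overlaps the gene's span or the 2 kb on either side of it. This gave 31 of the 28141 listed regions. The list compares 2 bisulfite sequencing libraries of C57BL/6 mouse adipose progenitors. The cells of one were sorted by PDGFRα (CD140), a growth factor receptor of mesenchymal progenitors, and those of the other by CD137, the costimulatory receptor encoded by Tnfrsf9. Both populations were sorted magnetically from fat labelled SAT or VAT, grown in culture, driven to differentiate with an adipogenic mixture and given dexamethasone, a synthetic glucocorticoid, at 1 µM. The labels do not say which depot gave which library or how many animals were used, and both libraries are treated, so an effect of dexamethasone cannot be seen.

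A methylation level is the fraction of the cytosines of a region read as methylated, from 0 to 1, and a difference is the level in PDGFRα+ minus the level in CD137+. Each group has 1 library, so nothing below was checked across replicates or tested. Levels carry no interval, because the depth of the reads is unknown. The regions were chosen by the methylation levels of both libraries and the difference between them, since the authors listed where the libraries differed, and the set of 7 genes was picked with the regions at 4 of them known. The levels and directions below are therefore descriptions. Coordinates are mm10, and starts may be off by 1 base because counting from 0 and from 1 cannot be told apart in the list.

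Regions were listed at 4 of the 7 genes. Syne2 had 12, Syne1 10, Syne3 6 and Lmna 3, while Sun1, Sun2 and Lmnb1 had none. Over all 21896 protein-coding genes of the annotation, 29.5% had a region. Of the 31 regions 24 were less methylated in PDGFRα+ cells and 7 were more methylated. The lower ones made up 77.4% (95% Wilson interval 60.2 to 88.6, which covers counting error only), next to 77.7% over the whole list, so in direction these genes as a group looked like the list. All 31 regions lay inside the gene spans, and none overlapped another row of the list. The regions nearest to the genes on the outside lay 4964 bases from Lmnb1 and 5722 bases from Syne3, well past the 2 kb limit.

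No region lay in a promoter window of the starts listed for these genes, which is the usual state over the annotation. RefSeq lists 10 start sites for 6 of the genes on GRCm38.p6, the assembly of mm10, and no region overlapped any of the 10 windows from 250 bases before to 50 after a start, which is also true of all but 1.42% of the 32851 windows in the annotation. The listed Syne3 start lies 11910 bases into the gene span, and the outer and inner Lmna starts lie 6580 and 16620 bases in. The 5′ ends of these spans therefore had no window and were not examined as promoters. Below are the 250 bases before a listed start of 4 genes, written 5′ to 3′. Each CG dinucleotide, the usual site of methylation in mammals, is in capitals. Syne2 and Sun2 are shown for their dense CG content, and Syne3 and Lmna because a region lies within 1 kb of the listed start shown.
Syne2 promoter, chr12:75818068-75818317, strand plus: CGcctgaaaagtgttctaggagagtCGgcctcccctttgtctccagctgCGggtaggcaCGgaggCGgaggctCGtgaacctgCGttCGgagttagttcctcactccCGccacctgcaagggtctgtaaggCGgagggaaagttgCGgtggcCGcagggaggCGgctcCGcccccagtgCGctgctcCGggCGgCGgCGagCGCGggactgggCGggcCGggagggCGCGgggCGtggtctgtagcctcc
Sun2 promoter, chr15:79742537-79742786, strand minus: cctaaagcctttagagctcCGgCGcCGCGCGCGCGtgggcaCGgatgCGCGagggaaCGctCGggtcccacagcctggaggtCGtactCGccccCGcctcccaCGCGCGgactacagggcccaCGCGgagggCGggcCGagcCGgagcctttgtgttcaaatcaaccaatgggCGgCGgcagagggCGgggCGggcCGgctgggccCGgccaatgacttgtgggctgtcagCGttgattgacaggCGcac
Syne3 promoter, chr12:104998678-104998927, strand minus: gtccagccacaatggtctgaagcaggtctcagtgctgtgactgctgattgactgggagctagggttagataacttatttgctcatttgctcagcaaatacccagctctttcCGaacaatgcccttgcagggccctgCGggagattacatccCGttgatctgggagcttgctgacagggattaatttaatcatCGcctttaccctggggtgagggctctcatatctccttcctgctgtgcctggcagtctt
Lmna promoter, chr3:88503353-88503602, strand minus: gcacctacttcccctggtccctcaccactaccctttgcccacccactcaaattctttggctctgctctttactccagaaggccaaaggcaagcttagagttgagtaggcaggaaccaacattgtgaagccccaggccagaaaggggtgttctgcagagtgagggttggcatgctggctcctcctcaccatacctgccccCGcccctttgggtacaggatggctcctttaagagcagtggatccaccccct

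Sun2 and Syne2 have 31 and 26 CG dinucleotides in these windows, and the first listed start of Sun1 has 30. Syne3 has 4 and the Lmna window printed above 1, against a median of 6 over all windows. The window of the inner Lmna start has 4, and the nearest region lay 2615 bases from that start. The Syne1 start at the 5′ end of the gene has 7, its other listed starts have 4 and 2, and the second listed start of Sun1 has 1. The nearest region lay 8769 bases from the Syne2 start, 27048 bases from the Sun2 start, 52672 bases from the first Sun1 start and 27163 bases from the outermost Syne1 start. The nearest region lay 606 bases inside the gene from the Syne3 start and 913 bases inside from the Lmna start printed above. Windows with few CG were also found far from any region, at 44390 bases for the second Sun1 start and at 34674 and 70492 bases for the inner Syne1 starts, so few CG and a near region did not always go together. The letters CATTCC, the core bound by TEAD factors such as TEAD1, the factor named in the title of the study, were searched on both strands. They were found in 1 of the 10 windows, that of the Syne1 start nearest the 3′ end, next to 12.6% of all windows.

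Syne2 encodes nesprin-2, a giant protein that binds actin at one end and the nuclear envelope at the other. The gene spans 293 kb on the plus strand of chromosome 12 (75818318 to 76110928). Of its 12 regions 11 were lower in PDGFRα+ cells. Averaged over the regions the level was 0.349 ± 0.194 in PDGFRα+ cells and 0.761 ± 0.187 in CD137+ cells (SD over 12 regions, which are not replicates). The regions were unevenly placed, with 9 in the first 70 kb from the start, 8 of them lower. The remaining 3 lay 177 to 200 kb from the start, and the last 92.1 kb of the gene had none.

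The first of these regions, 8769 bases after the start (75827087 to 75828385), held 68 cytosines in 1298 bases. Its level was 0.190 in PDGFRα+ cells and 0.809 in CD137+ cells. Its area statistic, a signed score that the authors' list gives for each region, was the 12th most negative of the 21870 lower regions. How that score was computed was not given in the sources used here. It was the longest region of the 4 genes and held the most cytosines. The next region (75836791 to 75837376) went the other way, with a level of 0.810 in PDGFRα+ cells and 0.230 in CD137+ cells over 22 cytosines. It was the only region of Syne2 that was higher in PDGFRα+ cells. From its start the gene thus had a wide lower region followed by a higher one, which began 18.5 kb in.

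Further in, 4 lower regions stood close together in 2121 bases (75844898 to 75847019), with gaps of 99 to 414 bases. They held 78 cytosines, and their levels ran between 0.225 and 0.487 in PDGFRα+ and between 0.692 and 0.890 in CD137+. When same-direction regions less than 1 kb apart were merged, these became 1. The fourth of them, 843 bases with 42 cytosines, had a level of 0.288 in PDGFRα+ cells and 0.856 in CD137+ cells. After them came 3 single lower regions at 37.1, 51.0 and 61.5 kb from the start. The region at 37.1 kb (75855386 to 75855870) had the widest difference of the gene, with a level of 0.275 in PDGFRα+ cells and 0.912 in CD137+ cells. The region at 51.0 kb had levels of 0.212 in PDGFRα+ cells and 0.746 in CD137+ cells, and the one at 61.5 kb had 0.105 in PDGFRα+ cells and 0.682 in CD137+ cells. The PDGFRα+ level at 61.5 kb was the lowest of the gene. In the far group the PDGFRα+ levels were 0.435, 0.231 and 0.527 at 177, 187 and 200 kb, and the CD137+ levels were 0.810, 0.730 and 0.925. None of the 12 regions overlapped another annotated gene.

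**Figure D1:**
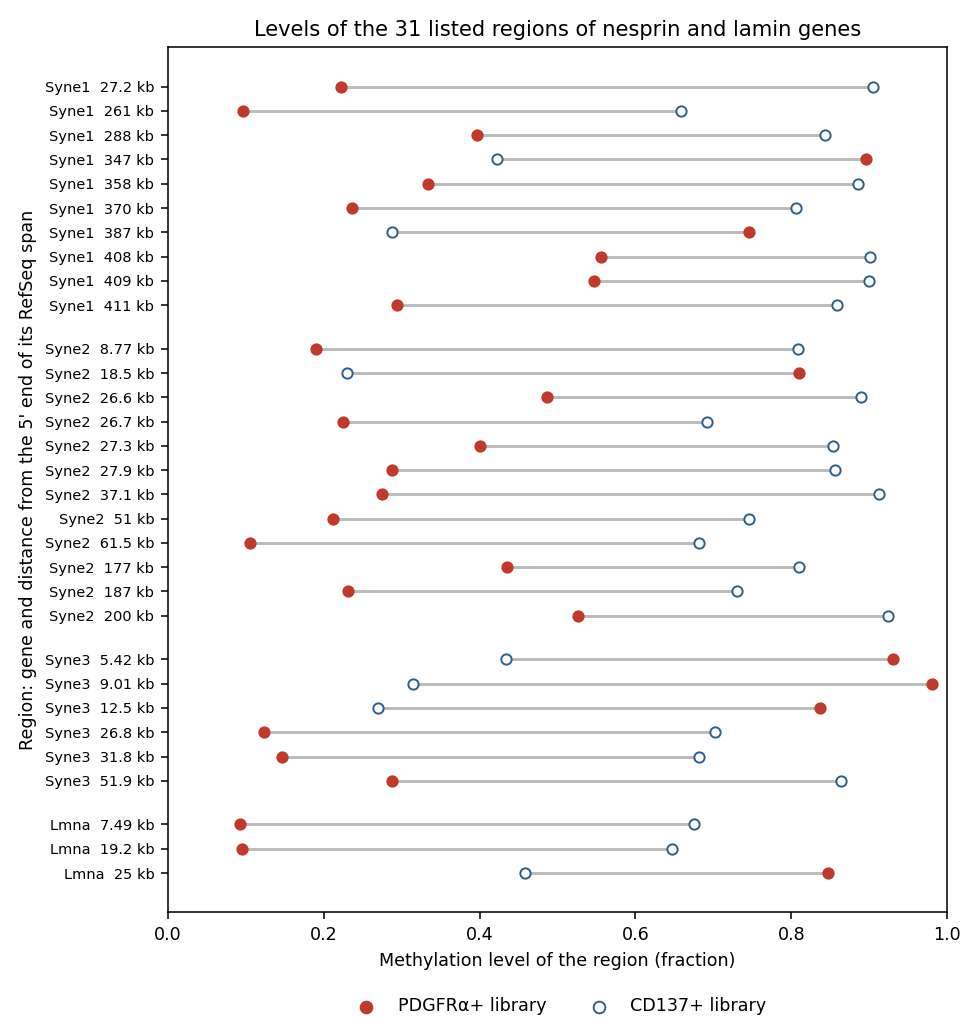
Methylation level (x axis, fraction) of each of the 31 regions in the PDGFRα+ library (filled red) and the CD137+ library (open blue), 1 point per library, with a grey line joining the pair. Regions run down the page by gene and by distance from the 5′ end of the gene span. In 24 regions the filled point is on the left, between 0.0928 and 0.556, and in 7 it is on the right, between 0.746 and 0.980.

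Syne1 encodes nesprin-1, the close relative of nesprin-2 and the largest of the family. Its gene spans 531 kb on the minus strand of chromosome 10 (5020192 to 5550692), and 8 of its 10 regions were lower in PDGFRα+ cells. The mean level was 0.432 ± 0.251 in PDGFRα+ cells and 0.747 ± 0.221 in CD137+ cells (SD over 10 regions). Its regions were short, with a median of 94.5 bases and 7.5 cytosines, next to 216 bases and 9 cytosines over the whole list. In Syne2 the medians were 334 bases and 17.5 cytosines.

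Unlike in Syne2, most of the Syne1 regions were far from the 5′ end. A single region, 27.2 kb from the 5′ end (5522988 to 5523529), stood at 0.222 in PDGFRα+ cells and 0.905 in CD137+ cells, the widest difference of all 31 at -0.68. It also overlaps Gm51758, an annotated non-coding RNA gene. After a gap of 233 kb, the other 9 regions lay in a stretch of 150.0 kb, between 261 and 411 kb from the 5′ end. The first of these (5288850 to 5289548) was the longest of the gene, with 698 bases and 18 cytosines, and had levels of 0.0960 in PDGFRα+ cells and 0.658 in CD137+ cells. At 288 kb the levels were 0.396 in PDGFRα+ cells and 0.843 in CD137+ cells. Further along, regions of both directions lay side by side.

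The higher regions of Syne1, at 347 kb (5204113 to 5204190) and 387 kb (5163977 to 5164047), were short and dense, with 11 cytosines in 77 bases and 7 in 70. Their levels in PDGFRα+ were 0.895 and 0.746, and those in CD137+ were 0.423 and 0.287. Between them lay lower regions at 358 and 370 kb, with levels of 0.334 and 0.237 in PDGFRα+ cells and 0.885 and 0.806 in CD137+ cells. Direction thus switched to lower and back to higher within 40.2 kb. At 408 and 409 kb a pair of regions 131 bases apart had the smallest differences of the 31, with levels of 0.556 and 0.547 in PDGFRα+ cells and 0.901 and 0.900 in CD137+ cells. The last, at 411 kb, had 5 cytosines spread over 586 bases and levels of 0.295 in PDGFRα+ cells and 0.859 in CD137+ cells. The start site that RefSeq lists 481629 bases into the span had no region within 70492 bases.

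Syne3 encodes nesprin-3, a shorter nesprin that binds plectin and through it intermediate filaments. The gene spans 80.7 kb on the minus strand of chromosome 12 (104929933 to 105010587), and its 6 regions split evenly by direction and by place. The 3 regions nearest the 5′ end of the span were higher in PDGFRα+ cells, and the 3 further along the gene were lower. Both directions were held by all 4 genes here, which have 3 to 12 regions, by 58.7% of the 1807 protein-coding genes with at least 3 regions, and by 23.0% of those with any region, many of which have a single one. Because of the even split, the mean level over the gene was 0.551 ± 0.406 in PDGFRα+ cells and 0.544 ± 0.239 in CD137+ cells (SD over 6 regions), and the mean says little about any part of it.

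The higher regions of Syne3 lay 5.42, 9.01 and 12.5 kb from the 5′ end of the span. From the 5′ end their PDGFRα+ levels were 0.931, 0.980 and 0.837, and their CD137+ levels were 0.434, 0.315 and 0.270. The middle one (105001345 to 105001582) had the widest difference upwards of the 31, 0.67, and its PDGFRα+ level was the highest of all. The outermost had 4 cytosines in 54 bases and also overlaps Gm31742, an annotated non-coding RNA gene. The listed start, whose promoter is printed above, lies 11910 bases into the span. The innermost higher region (104997787 to 104998071) was 606 bases downstream of it, and the other higher ones were 2668 and 6438 bases upstream.

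The lower regions of Syne3 lay 26.8, 31.8 and 51.9 kb from the 5′ end. There the PDGFRα+ levels were 0.124, 0.147 and 0.288, and the CD137+ levels were 0.702, 0.681 and 0.864. The region at 51.9 kb (104958302 to 104958704), with 23 cytosines, was the largest of the gene. The change of direction fell between 12.5 and 26.8 kb, across a gap of 13994 bases with no listed region.

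**Figure D2:**
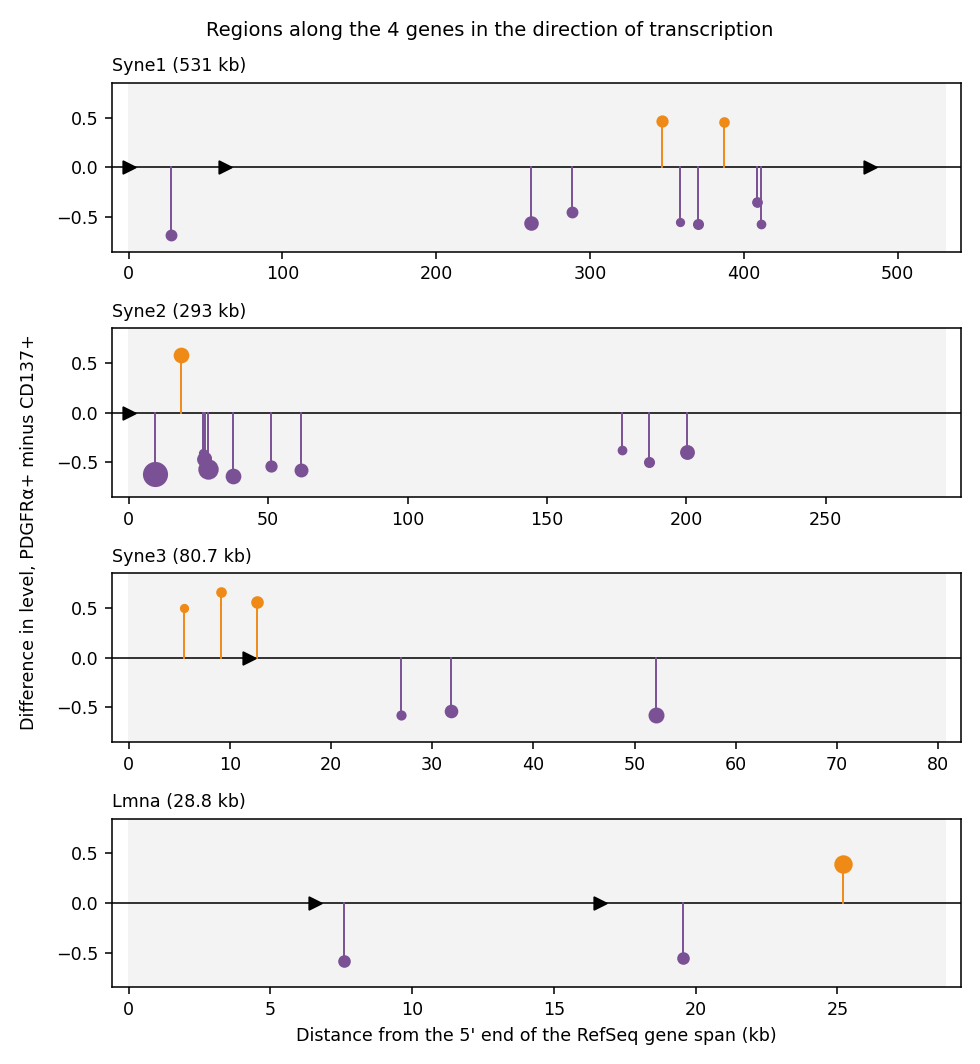
Difference in level (y axis, PDGFRα+ minus CD137+, fraction) of each region against its distance from the 5′ end of the RefSeq gene span (x axis, kb), 1 panel per gene with its own x scale. Purple regions are lower and orange ones higher in PDGFRα+, the area of a point grows with its number of cytosines, black arrowheads are listed start sites and the grey band is the gene span. The 3 orange points of Syne3 stand left of its 3 purple points, and 9 of the 12 Syne2 regions lie in the first 70 kb.

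Lmna encodes lamins A and C, the A-type lamins of differentiated cells. It is the shortest of the 4 genes, with 28.8 kb on the minus strand of chromosome 3 (88481148 to 88509932), and had 3 regions, 2 lower and 1 higher in PDGFRα+ cells. The region 913 bases downstream of the outer listed start (88502230 to 88502439) had a level of 0.0928 in PDGFRα+ cells and 0.675 in CD137+ cells. A second region, 2615 bases downstream of the inner listed start (88490093 to 88490697), had levels of 0.0945 in PDGFRα+ cells and 0.648 in CD137+ cells. Both thus had little methylation in PDGFRα+ cells and intermediate to high levels in CD137+ cells, and each had 12 cytosines. Those PDGFRα+ levels were the lowest of the 31 regions. The third region (88484560 to 88484883), near the 3′ end of the gene, had levels of 0.848 in PDGFRα+ cells and 0.459 in CD137+ cells. It had 33 cytosines in 323 bases, a density of 10.2 per 100 bases, next to 5.24 at the median of the 31 regions. In Lmna the higher region was the one farthest from the 5′ end, whereas in Syne3 the higher regions were the nearest to it.

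Lmnb1 encodes lamin B1, a farnesylated lamin of most cell types, and Sun1 and Sun2 encode the inner membrane partners of the nesprins. No region was listed at any of them. The gene lengths are 45.6 kb for Lmnb1, 49.3 kb for Sun1 and 18.5 kb for Sun2. A gene without a region may have had equal levels, or too few reads or cytosines for a call, and the list does not tell these apart. The nearest region to Lmnb1 had levels of 0.381 in PDGFRα+ cells and 0.779 in CD137+ cells. The nearest to Sun1, 9709 bases past its 3′ end, had levels of 0.305 in PDGFRα+ cells and 0.963 in CD137+ cells. The nearest to Sun2, 27048 bases away, had levels of 0.181 in PDGFRα+ cells and 0.831 in CD137+ cells. Each of these outer regions was lower in PDGFRα+, as most of the list was.

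Longer genes held more regions, so each count is set beside protein-coding genes whose span was within a factor of 1.2 of the same length. Of the 1214 such genes for Syne3, 58.2% had a region and 2.39% had at least 6. Of the 2167 for Lmna, 30.6% had a region and 2.54% had at least 3. For Syne2 there were 304, of which 89.1% had a region and 8.55% had at least 12, and for Syne1 143, of which 92.3% had a region and 22.4% had at least 10. Among genes of the length of Sun1, Sun2 and Lmnb1, 45.0%, 22.8% and 41.7% had a region, so having none was the more common state. Syne3 and Lmna thus held many regions for their length, Syne1 a number that was common, and the genes were chosen with these counts known.

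**Figure D3:**
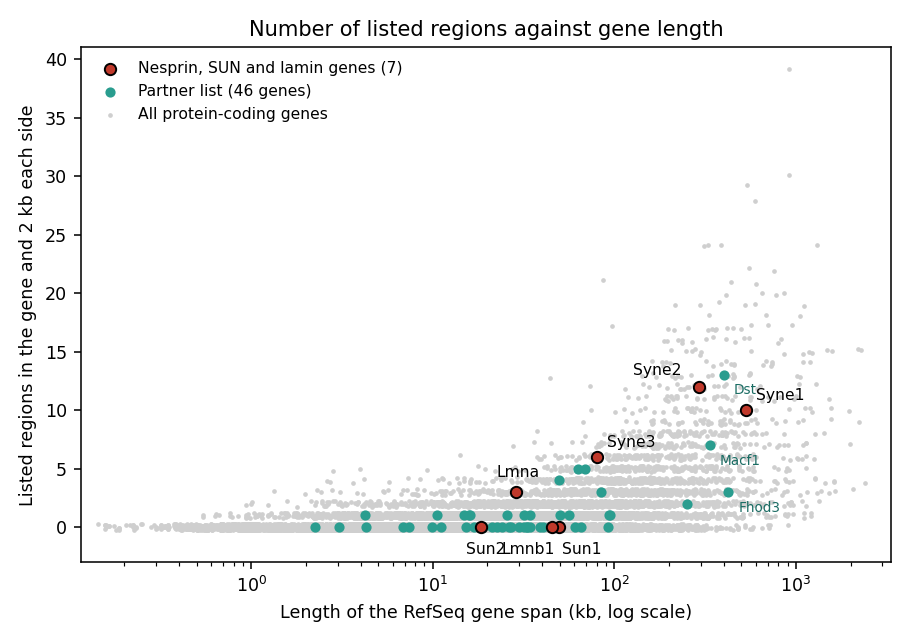
Number of listed regions in a gene and 2 kb each side (y axis) against the length of its RefSeq span (x axis, kb, log scale), 1 point per gene, with the 7 nesprin, SUN and lamin genes in red, the partner genes in green and all protein-coding genes in grey (grey points are spread slightly up and down). Syne2, Syne1, Syne3 and Lmna stand at 12, 10, 6 and 3 regions, and Sun1, Sun2 and Lmnb1 at 0.

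In size the differences were near those of the list at the median. The median difference was -0.552 in the lower regions, next to -0.527 over all lower regions of the list. In the higher regions it was 0.497, next to 0.507. In the 24 lower regions the median level was 0.256 in PDGFRα+ cells and 0.826 in CD137+ cells, next to 0.261 in PDGFRα+ and 0.820 in CD137+ over all lower regions of the list. In the 7 higher regions the median level was 0.848 in PDGFRα+ cells and 0.315 in CD137+ cells, next to 0.879 in PDGFRα+ and 0.344 in CD137+ over all higher regions. Differences of at least 0.6 in either direction were seen in 4 of the 31 regions (12.9%), next to 23.4% of the list. These were 2 in Syne2, 1 in Syne1 and 1 in Syne3. At the median the 31 regions had 237 bases and 11 cytosines, and 54.4% of the 458 cytosines they hold were in Syne2. A library below 0.02 was rare in the list, at 81 of 28141 regions, and none of the 31 regions had one.

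Genes that work with the nesprins and the lamina were read from a list of 46. Regions were listed at 20 of them (43.5%, next to 29.5% of all protein-coding genes), 18 mostly lower and 2 mostly higher in PDGFRα+ cells. Of their 54 regions 48 were lower (88.9%) and 6 higher, and 77.7% of the whole list was lower. The partner genes are longer at the median, with a span of 31.8 kb against 17.1 kb over all protein-coding genes. Without Dst and Macf1, 30 of 34 regions were lower. Outside the gene spans, in the 2 kb on either side, lay 7 of the 54 regions, among them 1 of Macf1 and 1 of Klc1.

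Cytoskeletal partners and motors held 36 of the 54 regions, 34 of them lower. Dst and Macf1 encode giant spectraplakins, which cross-link actin, microtubules and intermediate filaments and share spectrin repeats with nesprins. Dst was lower in 12 of 13 regions, with a mean level of 0.338 ± 0.217 in PDGFRα+ cells and 0.740 ± 0.130 in CD137+ cells (SD over regions, here and for the genes that follow). Macf1 was lower in 6 of 7, with 0.222 ± 0.271 in PDGFRα+ cells and 0.656 ± 0.226 in CD137+ cells. The exceptions were a Dst region with levels of 0.970 in PDGFRα+ cells and 0.432 in CD137+ cells, and a Macf1 region with levels of 0.831 in PDGFRα+ cells and 0.210 in CD137+ cells. Like Syne1 and Syne2, both giant genes thus held lower regions with 1 or 2 higher ones among them. Actn4, which encodes an actin-bundling alpha-actinin, was lower in 5 of 5 regions, with 0.228 ± 0.138 in PDGFRα+ cells and 0.877 ± 0.0674 in CD137+ cells. Klc1, a kinesin light chain gene of the motor that nesprins recruit, was lower in 4 of 4. One Klc1 region stood at low levels in both libraries, with 0.0092 in PDGFRα+ cells and 0.261 in CD137+ cells. Fhod3, a formin gene for actin assembly, was lower in 3 of 3, with 0.215 ± 0.118 in PDGFRα+ cells and 0.713 ± 0.211 in CD137+ cells. Plec, Flna and Fhod1, whose products link or stabilise actin and intermediate filaments, had no region.

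Among the genes of the lamina and its processing, Fntb encodes a subunit of the farnesyltransferase that modifies prelamin A and lamin B. It was lower in 3 of 3 regions, with a mean of 0.374 ± 0.0630 in PDGFRα+ cells and 0.937 ± 0.0157 in CD137+ cells. Zmpste24, Icmt and Rce1, which carry out the later steps of lamin maturation, had none. Mlip, which encodes a protein that binds lamins A and C, was lower in 2 of 2 regions, with 0.216 ± 0.0949 in PDGFRα+ cells and 0.912 ± 0.0833 in CD137+ cells. A single region was listed at 7 further genes of the lamina and inner membrane, 5 of them lower and 2 higher. The higher ones were Ankle2, with 0.922 in PDGFRα+ cells and 0.320 in CD137+ cells, and Lemd3, with 0.863 in PDGFRα+ cells and 0.497 in CD137+ cells. Among the lower ones were Lemd2, with 0.195 in PDGFRα+ cells and 0.961 in CD137+ cells, and Tmpo, with 0.162 in PDGFRα+ cells and 0.564 in CD137+ cells. Proteins with a LEM domain, which all 4 of these genes encode, thus stood on both sides. Emd, Lbr and Lmnb2, for emerin, the lamin B receptor and lamin B2, had none. Of the other genes for KASH proteins, the family to which nesprins belong, Irag2 (Lrmp in the annotation) had 3 lower and 2 higher regions and Syne4 had 1 lower region. The Syne4 region lies outside the gene span and overlaps Alkbh6, and a lower region of Irag2 lies outside its span and overlaps Casc1. In the higher regions of Irag2 the levels were 0.781 and 0.795 in PDGFRα+ cells and 0.301 and 0.214 in CD137+ cells. No region was listed at Sun3, Sun5, Spag4 or Kash5.

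**Figure D4:**
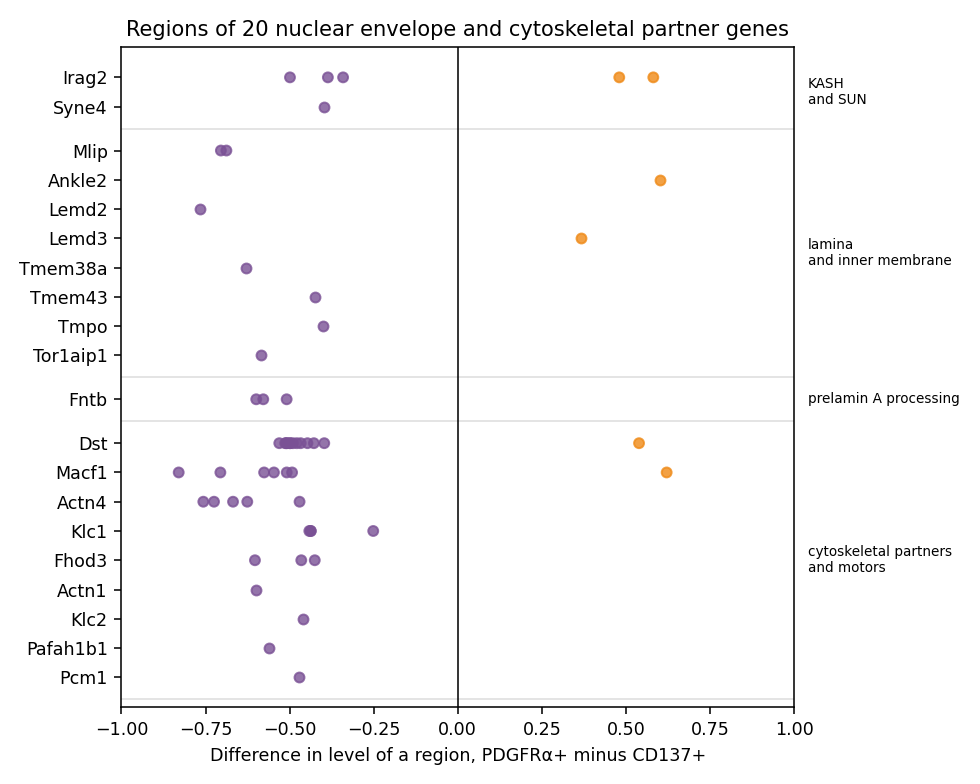
Difference in level (x axis, PDGFRα+ minus CD137+, fraction) of each of the 54 regions of the 20 partner genes that have one, 1 point per region, with purple for lower and orange for higher in PDGFRα+. Genes run down the page by role, and 48 of the 54 points lie left of 0.

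Markers of cell types were read in the same way, as a check of what the libraries hold. For comparison, 77.7% of the whole list was lower in PDGFRα+ cells, and 29.5% of all protein-coding genes had a region. Among the 7 progenitor markers, Pdgfra, Dpp4 and Dcn had 14 regions, 13 of them lower in PDGFRα+ cells, and Dlk1, Ly6a, Cd34 and Pi16 had none. The higher one was a Dpp4 region 133 bases upstream of the listed start, with 0.77 in PDGFRα+ and 0.21 in CD137+. Tnfrsf9, the gene of CD137, had none. All 5 immune markers had regions, 17 of 19 higher. In the higher ones levels ran from 0.720 to 0.933 in PDGFRα+ and from 0.161 to 0.505 in CD137+. Ptprc held 8 of the higher ones and Ikzf1 5. The only region of Cd3e was lower (0.324 in PDGFRα+, 0.966 in CD137+). Spi1 had 1 higher and 1 lower region, the lower one with 0.133 in PDGFRα+ and 0.790 in CD137+. All 3 endothelial markers had regions, 7 of 7 higher, with levels from 0.883 to 0.962 in PDGFRα+ and from 0.254 to 0.615 in CD137+. Among 3 mural markers, Acta2 and Rgs5 each had 1 lower region and Cspg4 none. The methylation of a marker is not its expression, and the part of other cells in the levels of the nesprin and lamin genes was not tested.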

How the data were processed

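DNA methylation was measured by bisulfite sequencing in 2 libraries, 1 of PDGFRα+ (CD140) and 1 of CD137+ adipose progenitors, grouped by their titles. The authors deposited 1 table of 28141 differentially methylated regions. Per the file headers, it gives each region's position, length, number of cytosines, 1 methylation level per library as a fraction, the difference between them, an area statistic as a signed score, and a direction. The deposited difference equals the level in CD140 minus that in CD137 within 0.0002 in every region. Per the submitters' processing notes, positions are on mm10. For the aligner, the callers, their thresholds, the coverage minimum and the cytosine context, the authors' choices were not given in the sources used here. The deposited regions have at least 4 cytosines and 51 bases. Read counts were not used here, so depth and its precision are unknown.

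Regions were assigned to RefSeq gene spans (GRCm38.p6) with 2 kb on either side. All 46 partner symbols matched a gene, 1 of them by a synonym. Start sites, strands and promoter sequences are those of RefSeq, on the same build. Exons were not used here, so exons and introns are not separated. Lmnb1 had no promoter sequence used here. The members, gene lists and rules were chosen with earlier results of these data known. All 7 members are named with every region, and of the partners those with at least 3 regions, or at least 2 regions of a single direction. Partners and markers named outside this rule, among them those with a single region or none, were chosen after their values were seen. With 1 library per group, groups were not tested against each other. Assignment was tested on simulated data (200 genes with planted regions) and against an exhaustive search over 300 genes, with 0 mismatches in both. Alternatives changed the minimum difference, the minimum number of cytosines, the area statistic, the flank, the merging of neighbours, the weighting and the reading of the starts. The software was Python 3.11.15 with matplotlib 3.10.9, scipy 1.17.1, pandas 2.3.3 and numpy 2.4.6.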

Additional observations from a re-analysis of the deposited data

How the results depend on the processing

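Of 150 values recomputed under 11 alternatives, 129 kept their direction and stayed within the limits set for them, which were 1.5 times for a count, the 95% binomial interval for the share of lower regions and the median difference, and 1 SD over a gene's regions for its mean difference. With an absolute difference of at least 0.5, the 31 regions became 18, the 24 lower ones 15, the median difference over them -0.57 (-0.50 with all), the 10 of Syne1 5 and the 12 of Syne2 6. With at least 10 cytosines, or with only absolute area statistics above the median, 19 regions remained in each case, 15 of them lower, with 4 in Syne1 and 3 in Syne3. With 10 kb on each side, Sun1 and Lmnb1 each gained 1 region. Part of the 129 values had no room to change. All 31 regions pass a minimum difference of 0.3 and lie inside the gene spans. That minimum and the spans without a flank therefore left every value as it was, and so did starts moved by 1 base. The counts of 0 at Sun1, Sun2 and Lmnb1 cannot fall under a stricter filter. The mean difference of Syne3, 0.0067 over evenly split regions, turned to -0.091 with a difference of at least 0.5 and with at least 5 cytosines, to -0.18 with at least 10 cytosines and with the larger area statistics, to -0.085 with 10 kb on each side and to -0.17 when weighted by cytosines. The mean differences of Lmna and Syne1 stayed within 1 SD, a wide limit over regions of both directions. That of Lmna, -0.25, was -0.014 when weighted by cytosines, because its higher region holds the most, and -0.57 with a difference of at least 0.5, which drops that region. That of Syne1, -0.31, was -0.59 with a difference of at least 0.5. The share of lower regions stayed inside its interval under every alternative run. No paired analysis was possible because each group has 1 library, which also leaves no library to leave out. Depth is unknown, so which small regions rest on few reads cannot be told.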

Other observations

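Within 50 kb of the 7 genes, outside the 2 kb limit, lay 15 further regions, 13 lower and 2 higher in PDGFRα+ cells. In the whole list 77.7% were lower. Counted among the 13 are 2 rows near Syne3 that overlap each other, described in the next paragraph. Next to Lmna, regions of Sema4a, which encodes a semaphorin, had levels of 0.249 and 0.864 in PDGFRα+ cells and 0.709 and 0.243 in CD137+ cells, 1 lower and 1 higher. Next to Syne1, a region of Esr1, the oestrogen receptor alpha gene, had levels of 0.252 in PDGFRα+ cells and 0.895 in CD137+ cells. Around Sun2, regions of Josd1 and Dnal4 were lower (0.188 and 0.181 in PDGFRα+, 0.652 and 0.831 in CD137+) and a region of Gtpbp1 was higher (0.830 in PDGFRα+, 0.260 in CD137+).

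About 31 kb below the Syne3 span, 2 rows of the list overlap each other (chromosome 12, 104898279 to 104898646 and 104898369 to 104898585). They have 78 and 25 cytosines and levels of 0.0071 and 0.0103 in PDGFRα+ cells and 0.266 and 0.318 in CD137+ cells. In the whole list 20 rows overlap another row, and in 19 of them 1 library is below 0.02. Their median density is 15.8 cytosines per 100 bases, against 4.62 in the other rows.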
